A study of Homo sapiens with 5 samples.

Results

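Glutamate receptor genes were followed through human brain organoid cells, in culture and in mouse grafts. The set held 10 of the 36601 genes of the graft annotation: GRIA1, GRIA2, GRIA3 and GRIA4 (AMPA receptor subunits), GRIN1, GRIN2A and GRIN2B (NMDA receptor subunits), GRIK1 and GRIK2 (kainate receptor subunits) and GRM5 (a metabotropic receptor). The genes were taken by name, with earlier results of these data known. They were read in 4 classes of human cells set by marker genes: neuron-like cells (neurons below), intermediate progenitor-like cells (IP), OLIG1 or PDGFRA glia and astrocyte-like cells (astrocytes below). These classes held 27294 of 34390 human cells, which was 79.4%.

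Glutamate is the main excitatory transmitter of the brain. AMPA, NMDA and kainate receptors are ion channels built from several subunits, so that the mix of subunits sets how a channel gates and which ions it passes; AMPA receptors with GRIA2 made from edited RNA pass little calcium. Most NMDA receptors pair GRIN1 with a GRIN2 subunit, GRIN2B being the prominent one in the fetal forebrain. GRM5 acts through a G protein and calcium stores and is known from developing astrocytes as well as from neurons, and oligodendrocyte precursors are known to carry AMPA and kainate receptors.

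All cells came from the human embryonic stem cell line H9, whose derivative AAVS-ChR2-EYFP (genotype WT in the labels) carries a light-gated channel and a fluorescent protein. Group D0 was 1 library of organoids at day 42 of culture. Groups 2MPT and 4MPT were organoids grafted at the same day 42 into the hippocampus (HIP) or prefrontal cortex (PFC) of young adult SCID mice (SCID-Beige in another passage of the study's text), collected 2 and 4 months post transplantation (MPT), with 1 library for each site and stage. Each stage thus had 2 replicates, its HIP and its PFC library. The spread within a stage therefore includes the difference between the sites, which the main fits of the stages did not model. Since several organoids or mice went into the set of libraries and the labels do not tie cells to them, and since all cells share 1 line, p-values measure the spread between these libraries and not between donors. D0 was dissociated with another enzyme (TrypLE against Trypsin-EDTA), counted with Cell Ranger 3.1.0 instead of 5.0.0 and listed under another annotation (33538 genes, of which 32732 were shared with the grafts), so that these differences cannot be told apart from transplantation.

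Unique molecular identifiers (UMIs, each standing for 1 captured RNA molecule) numbered 12451092 to 57135277 per library, and human cells 4885 to 8363. Median UMIs per human cell were 9847 in D0 and 1253 to 2759 in the grafts, and the median mitochondrial share was 7.31% in PFC_4MPT and 2.35% to 3.77% elsewhere. Any pair of libraries shared 8 to 34 cell barcodes. Neurons were 63.3% of human cells, IP 6.35%, OLIG1 or PDGFRA glia 4.61% and astrocytes 5.08%. In the grafts, markers were compared between the classes: STMN2 lay between 2077 and 4596 CPM (counts scaled to a class total of 1e6) in neurons, 1577 and 2056 in IP and 111 and 1236 in the glial classes, EOMES between 204 and 333 CPM in IP against at most 33.9 elsewhere, and OLIG1 between 281 and 2175 CPM in the OLIG1 or PDGFRA glia against at most 163 elsewhere. AQP4 lay between 31.9 and 576 CPM in astrocytes and reached 121 CPM in OLIG1 or PDGFRA glia, so the ranges of these classes overlapped, as those of DCX did in neurons (395 to 603 CPM) and IP (355 to 603 CPM). RBFOX3, another neuron marker, did not set neurons apart. Its range was 6.78 to 60.5 CPM in neurons, 4.42 to 65.1 in IP, 0 to 88.8 in OLIG1 or PDGFRA glia and 2.88 to 10.5 in astrocytes. In HIP_4MPT it was at 88.8 CPM in OLIG1 or PDGFRA glia against 6.78 in neurons. The OLIG1 or PDGFRA glia held only 29 cells in HIP_2MPT, 43 in PFC_2MPT and 1 in D0, against 841 in HIP_4MPT and 671 in PFC_4MPT. The D0 astrocytes were 83 cells in which GFAP and AQP4, defining astrocyte markers, were both at 0. A level below is the UMI count of a gene summed over the cells of a class in a library, on that CPM scale. Levels of different genes were not compared, since a UMI count depends on the transcript.

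The GRIA2 sequence upstream of its start is shown because GRIA2 was higher in graft neurons than in each other class without overlap. That order holds for whole classes and not for single clusters, which are described below. By graft mean, GRIA2 was at 597 CPM in cluster 27 of the OLIG1 or PDGFRA glia. It was at 63.4 and 39.3 CPM in the inhibitory neuron-like clusters 11 and 25, and at 217 to 574 CPM in the other neuron clusters. The GRIA2 sequence also held the only match to a known neuronal silencer sequence among the receptor gene windows at hand. The window (RefSeq, GRCh38.p14, plus strand, chr4:157220369-157220668) spans the bases from 250 before to 50 after a RefSeq start of GRIA2 and lies inside the GENCODE span of the gene (chr4:157204182-157387146). Capitals mark the match, on the opposite strand, to the core of the RE1 element that the repressor REST is known to bind, with any base allowed at 2 of its positions, beginning 227 bases before the start.
GRIA2 promoter: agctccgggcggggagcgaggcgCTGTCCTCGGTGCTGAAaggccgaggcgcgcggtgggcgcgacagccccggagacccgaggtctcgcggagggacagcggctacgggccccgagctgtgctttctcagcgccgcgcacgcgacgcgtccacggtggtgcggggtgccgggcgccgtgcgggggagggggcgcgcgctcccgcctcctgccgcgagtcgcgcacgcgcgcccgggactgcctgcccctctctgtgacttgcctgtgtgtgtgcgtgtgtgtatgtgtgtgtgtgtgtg
Both strands were searched, and 5 of 35116 such windows of the genome (0.0142%) held this core. Its shorter part TTCAGCACC, which overlaps it, stood in 132 windows (0.376%). Windows were at hand for 7 of the 10 receptor genes, 16 in all, and none but this GRIA2 window held the core. GRIA3, GRIN1 and GRIK1 had no window and were not searched. REST itself (outside the naming rule and chosen after its values were seen) was at 4.39 to 7.38 CPM in graft neurons, 5.69 to 8.33 in graft IP, 23.7 to 37.5 in OLIG1 or PDGFRA glia and 31.6 to 63.8 in graft astrocytes. Both ends of the range of these glia rest on few UMIs, 3 in PFC_2MPT (exact 95% interval 4.89 to 69.3 CPM) and 2 in HIP_2MPT (4.54 to 135 CPM). Their 4MPT values were 31.2 CPM in HIP (95 UMIs) and 24.9 CPM in PFC (45 UMIs). Graft IP gave 6 to 10 UMIs per library, and the lowest astrocyte value rests on 12. In D0 REST was at 23.2 CPM in neurons, 28.9 in IP and 76.1 in astrocytes, so that D0 neurons lay above all graft neurons in REST. A match describes letters and not binding.

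**Figure D1:**
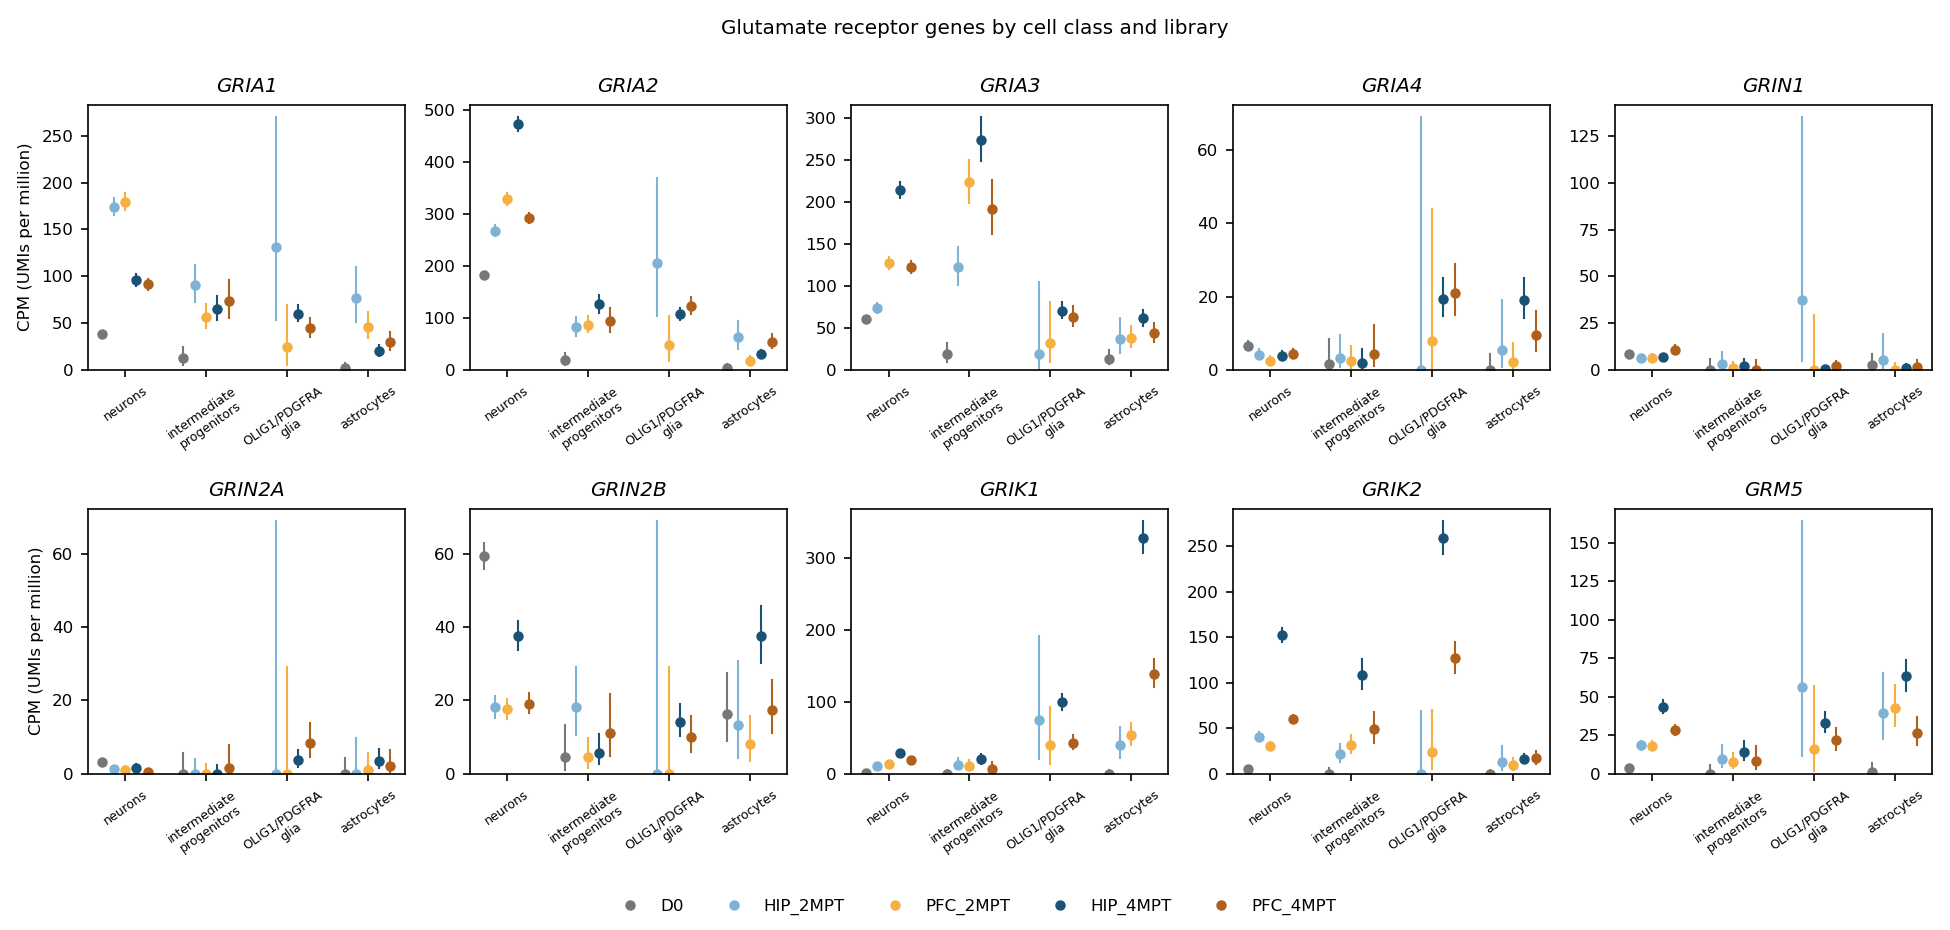
Level (CPM, linear axis from 0, a separate scale per panel) of each receptor gene in the 4 cell classes; each point is 1 library and each bar its exact 95% Poisson interval, which covers counting error only. GRIA2 was at 268 to 473 CPM in graft neurons and below that in every other class, GRIK1 reached 329 CPM in astrocytes of HIP_4MPT, and the wide bars of OLIG1 or PDGFRA glia at 2MPT rest on 29 and 43 cells.

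The classes were described over the 4 graft libraries, without a test, because the classes were set from the same cells. Of 60 pairs of classes (6 pairs for each gene), 22 had ranges that did not overlap, beside 18.8% of such pairs over all genes with at least 1 CPM. Overlap compares the library values alone and leaves out counting error, and some gaps were narrow. GRIA1 was at 91.1 CPM in the lowest neuron library and 90.7 in the highest IP library. GRIA3 was at 72.8 CPM in the lowest neuron library and 70.0 in the highest of OLIG1 or PDGFRA glia. Assigning each cell on its own by its summed markers, without clusters, gave only 3 pairs without overlap, so the separation of classes below rests on classes built from clusters. GRIA1, GRIA2, GRIN1 and GRM5 were higher in neurons than in IP (4 of 10 genes, 8.86% of all genes), and GRIA1, GRIA2, GRIA3, GRIN1 and GRIK2 were higher and GRIK1 lower in neurons than in astrocytes (6 of 10, 32.1% of all genes). GRIA2, GRIA3 and GRIN2B were higher and GRIK1 lower in neurons than in OLIG1 or PDGFRA glia (4 of 10, 21.2%). IP differed in GRIA3 (higher), GRIK1 and GRM5 (lower) from OLIG1 or PDGFRA glia (3 of 10, 13.8%) and in 5 of 10 genes from astrocytes (26.3%). The glial classes overlapped in 10 of 10 genes (0 of 10 apart, 10.7% of all genes). The ranges of the OLIG1 or PDGFRA glia include 2MPT libraries of 29 and 43 cells with few UMIs, so this overlap does not show that the classes are alike. At 4MPT alone the mean of GRIK2 was 193 CPM in these glia and 16.2 CPM in astrocytes, and that of GRIA4 was 20.2 and 14.2 CPM.

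GRIA2, the AMPA subunit that limits calcium entry, was at 181.8 CPM in D0 neurons, 267.8 (HIP) and 328.4 (PFC) at 2MPT and 472.8 (HIP) and 292.2 (PFC) at 4MPT. The graft neurons lay above D0, with HIP_4MPT highest. In IP the grafts were at 81.1, 86.5, 125.7 and 93.0 CPM in the same order, and astrocytes at 63.3, 16, 30.4 and 54.0 CPM. The order over grafts was neurons, OLIG1 or PDGFRA glia, IP and astrocytes; neurons stood 2.83 times above the next class without overlap, glia and IP overlapped, and IP stood above astrocytes without overlap. In the OLIG1 or PDGFRA glia GRIA2 was at 206.0 CPM in HIP_2MPT (11 UMIs, exact 95% interval 103 to 369) and 47.5 CPM in PFC_2MPT (6 UMIs, 17.4 to 103), then at 106.2 and 121.9 CPM in HIP_4MPT and PFC_4MPT. The 11 neuron markers summed to 2659 CPM in the glia of HIP_2MPT, where 9 of 11 were detected, against 443 CPM in PFC_2MPT, 488 in HIP_4MPT and 767 in PFC_4MPT. BCL11B and RBFOX3 were at 0 there in HIP_2MPT, and the part of neuronal RNA in that level was not tested.

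GRIA1, a subunit of calcium-permeable and synaptic AMPA receptors, was at 38.3 CPM in D0 neurons, 174.2 (HIP) and 179.7 (PFC) at 2MPT and 95.9 (HIP) and 91.1 (PFC) at 4MPT. Both 2MPT libraries lay above both 4MPT libraries, and D0 lay below all grafts. Neurons were 1.90 times above IP over the grafts. The ranges were barely apart, at 91.1 CPM in neurons of PFC_4MPT and 90.7 CPM (85 UMIs) in IP of HIP_2MPT. This gap is smaller than the counting error. IP, at 56.2 to 90.7 CPM, overlapped with OLIG1 or PDGFRA glia, at 23.7 to 131 CPM, and these with astrocytes. Astrocytes were at 1.17 CPM in D0 (1 UMI), 76.5 and 45.9 CPM at 2MPT and 20.1 and 29.5 CPM at 4MPT, so that the stages did not overlap. The neuron markers in graft astrocytes summed to 1672 (HIP) and 411 CPM (PFC) at 2MPT and 354 (HIP) and 481 (PFC) at 4MPT, all 11 detected in each, and their part in the GRIA1 level was not tested.

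GRIA3, an AMPA subunit gene of the X chromosome, was higher in IP than in neurons of every graft library. IP were at 18.2 CPM in D0 (12 UMIs), 121.7 (HIP) and 223.4 (PFC) at 2MPT and 273.6 (HIP) and 191.6 (PFC) at 4MPT. Neurons were at 60.0, 72.8, 126.8, 213.9 and 121.9 CPM in the same order. The IP mean was 1.51 times that of neurons (higher in 4 of 4 graft libraries), although the ranges overlapped. Neurons stood 2.92 times above OLIG1 or PDGFRA glia (18.7 to 70.0 CPM), with a narrow gap to the lowest neuron library (72.8 CPM in HIP_2MPT). Astrocytes, at 36.9 to 60.8 CPM in the grafts, did not differ from these glia beyond the ranges.

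GRIA4, a subunit of fast AMPA receptors, was sparse in neurons, at 6.52 CPM in D0, 4.04 and 2.41 at 2MPT and 3.64 and 4.28 at 4MPT. In IP it gave at most 3 UMIs per library. In OLIG1 or PDGFRA glia it was at 19.4 CPM in HIP_4MPT (59 UMIs) and 21.1 CPM in PFC_4MPT (38 UMIs), with 0 and 1 UMI at 2MPT, where 0 UMIs allow up to 56.2 CPM in HIP_2MPT. Astrocytes gave 2 UMIs in each 2MPT library (5.27 and 1.99 CPM) and were at 19.0 and 9.37 CPM in HIP_4MPT and PFC_4MPT.

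The share of each subunit among the UMIs of GRIA1 to GRIA4 was compared between libraries, not between subunits. In neurons the GRIA2 share was 63.4% in D0 (exact 95% interval 62.1 to 64.8), 51.6% (HIP) and 51.5% (PFC) at 2MPT and 60.1% (HIP) and 57.3% (PFC) at 4MPT, a graft mean of 55.2% ± 4.29 (SD, n = 4). Both 4MPT libraries lay above both 2MPT libraries, and D0 above all. The GRIA1 share was lower in both 4MPT libraries than in both 2MPT libraries, at 13.4% in D0, 33.6% and 28.2% at 2MPT and 12.2% and 17.9% at 4MPT. In IP the GRIA2 share was 25.9% ± 1.74 (SD, n = 4), below every neuron library, and the GRIA3 share was 41%, 60.6%, 58.8% and 52.9% in HIP_2MPT, PFC_2MPT, HIP_4MPT and PFC_4MPT, above every neuron library (14% to 27.2%). The OLIG1 or PDGFRA glia at 4MPT had a GRIA4 share of 7.59% in HIP and 8.41% in PFC, against at most 0.839% in graft neurons. Astrocytes at 4MPT also lay above graft neurons in this share. It was 14.5% in HIP (48 UMIs, 10.9 to 18.8%) and 6.88% in PFC (13 UMIs, 3.71 to 11.5%). With 2 libraries against 2 an exact two-sided permutation test cannot go below p = 0.333, so none was run on shares.

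**Figure D2:**
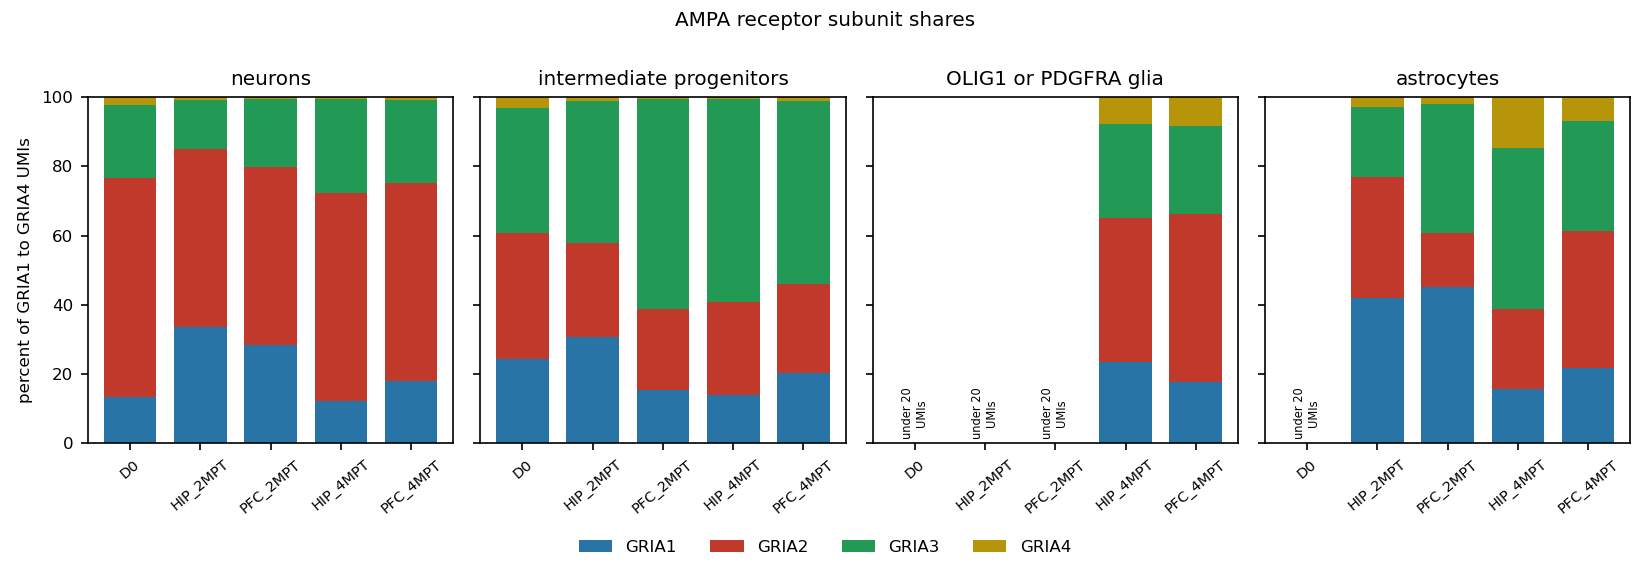
Percent of GRIA1 to GRIA4 UMIs (stacked to 100%) in each library, 1 panel per class; libraries with fewer than 20 such UMIs are left blank. In neurons the GRIA1 share is wider at 2MPT (33.6% and 28.2%) than at 4MPT (12.2% and 17.9%), GRIA3 takes the widest share of IP in the grafts (41% to 60.6%), and GRIA4 is visible in glia of 4MPT.

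GRIN1, the subunit that NMDA receptors share, was at 8.20 CPM in D0 neurons, 6.12 and 6.47 at 2MPT and 6.57 and 10.7 at 4MPT. The neuron libraries held 50 to 146 UMIs each, and every other class gave at most 3 UMIs per library, so the classes are compared at the edge of the depth. GRIN2B, the GRIN2 subunit of early forebrain, was at 59.5 CPM in D0 neurons, 18.1 and 17.5 at 2MPT, 37.6 in HIP_4MPT and 19.1 in PFC_4MPT. D0 stood above all grafts. GRIN2B in astrocytes was at 16.4 CPM in D0 (14 UMIs), 13.2 (5 UMIs) and 7.98 (8 UMIs) at 2MPT, 37.5 in HIP_4MPT (95 UMIs) and 17.3 in PFC_4MPT (24 UMIs). In IP it stayed at or below 18.1 CPM, and OLIG1 or PDGFRA glia gave 0 UMIs at 2MPT and 14.1 and 9.97 CPM at 4MPT.

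GRIN2A, the GRIN2 subunit that prevails later in cortical development, gave 54 UMIs in D0 neurons (3.03 CPM) and 9, 10, 16 and 4 UMIs in HIP_2MPT, PFC_2MPT, HIP_4MPT and PFC_4MPT (1.10, 1.10, 1.62 and 0.380 CPM). Its share of GRIN2A and GRIN2B UMIs in neurons was 4.85% in D0 and 1.95% to 5.88% in the grafts, intervals that overlapped (PFC_4MPT 0.534 to 4.92%). In OLIG1 or PDGFRA glia at 4MPT the share was 20.4% in HIP (11 of 54 UMIs, 10.6 to 33.5%) and 45.5% in PFC (15 of 33 UMIs, 28.1 to 63.6%). Both intervals lay above those of the neurons of the same library. IP gave 1 GRIN2A UMI in all 5 libraries together.

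GRIK1, a kainate receptor subunit, was at 39.6 CPM in astrocytes of HIP_2MPT (15 UMIs, exact 95% interval 22.1 to 65.2), 53.8 in PFC_2MPT (54 UMIs, 40.5 to 70.3), 328.7 in HIP_4MPT (832 UMIs, 307 to 352) and 139.1 in PFC_4MPT (193 UMIs, 120 to 160). Both 4MPT libraries lay above both 2MPT libraries, and HIP_4MPT was the highest value of the gene in any class. D0 astrocytes gave 0 of 854403 UMIs, which allows up to 3.51 CPM. OLIG1 or PDGFRA glia were at 74.9 and 39.5 CPM at 2MPT (4 and 5 UMIs), 99.3 in HIP_4MPT and 42.7 in PFC_4MPT, and neurons at 0.281 CPM in D0 (5 UMIs), 10.4 and 13 at 2MPT and 28.8 and 18.7 at 4MPT. Over the grafts astrocytes and OLIG1 or PDGFRA glia overlapped, the glia stood 3.61 times above neurons without overlap, and neurons overlapped with IP (6.94 to 19.6 CPM).

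GRIK2, the other kainate subunit measured here, was at 4.44 CPM in D0 neurons, 40.6 (HIP) and 30.5 (PFC) at 2MPT and 152.3 (HIP) and 59.7 (PFC) at 4MPT. Both 4MPT libraries lay above both 2MPT libraries, HIP_4MPT most of all. IP gave 0 UMIs in D0 and were at 21.3 (HIP) and 31.1 CPM (PFC) at 2MPT and 108.7 (HIP) and 48.6 CPM (PFC) at 4MPT. OLIG1 or PDGFRA glia gave 0 UMIs in HIP_2MPT and 3 in PFC_2MPT, and were at 258.7 CPM in HIP_4MPT (787 UMIs) and 126.9 in PFC_4MPT (229 UMIs). Astrocytes were at 8.97 to 16.6 CPM in the grafts, and IP stood 3.84 times above them without overlap. GRIK1 made up 75%, 85.7%, 95.4% and 89.4% of GRIK1 and GRIK2 UMIs in astrocytes of HIP_2MPT, PFC_2MPT, HIP_4MPT and PFC_4MPT, against 15.9% to 30.0% in graft neurons and 27.7% and 25.2% in OLIG1 or PDGFRA glia of HIP_4MPT and PFC_4MPT.

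Because depth differed between libraries and classes, every cell was thinned to 1000 UMIs before cells with a UMI were counted. GRIK1 was seen in 3.15% of astrocytes in HIP_2MPT, 3.82% in PFC_2MPT, 24.6% in HIP_4MPT (21.1 to 28.4%) and 15.1% in PFC_4MPT (11.9 to 18.7%), with 67, 9, 8 and 3 shallower astrocytes left out. Without thinning the shares were 4.50%, 11.2%, 59.1% and 28.2%. GRIK2 was seen in 19.8% and 10.3% of OLIG1 or PDGFRA glia of HIP_4MPT and PFC_4MPT and in 0.882% to 1.33% of graft astrocytes. As a background, mouse host barcodes, which should hold no human receptor RNA, had a human GRIK1 UMI in 0.109% to 0.416% of 772 to 2071 barcodes, at medians of 54 to 241 human UMIs; for GRIA2, abundant in graft neurons, that share was 0.777% to 3.08%. For GRIK2 it was 0.437% (HIP) and 0 (PFC) at 2MPT and 1.45% (HIP) and 0.998% (PFC) at 4MPT. Host barcodes held fewer human UMIs than the 1000 of a thinned astrocyte, so these shares are not at the same depth. The part of background in the GRIK2 shares of astrocytes was not tested.

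**Figure D3:**
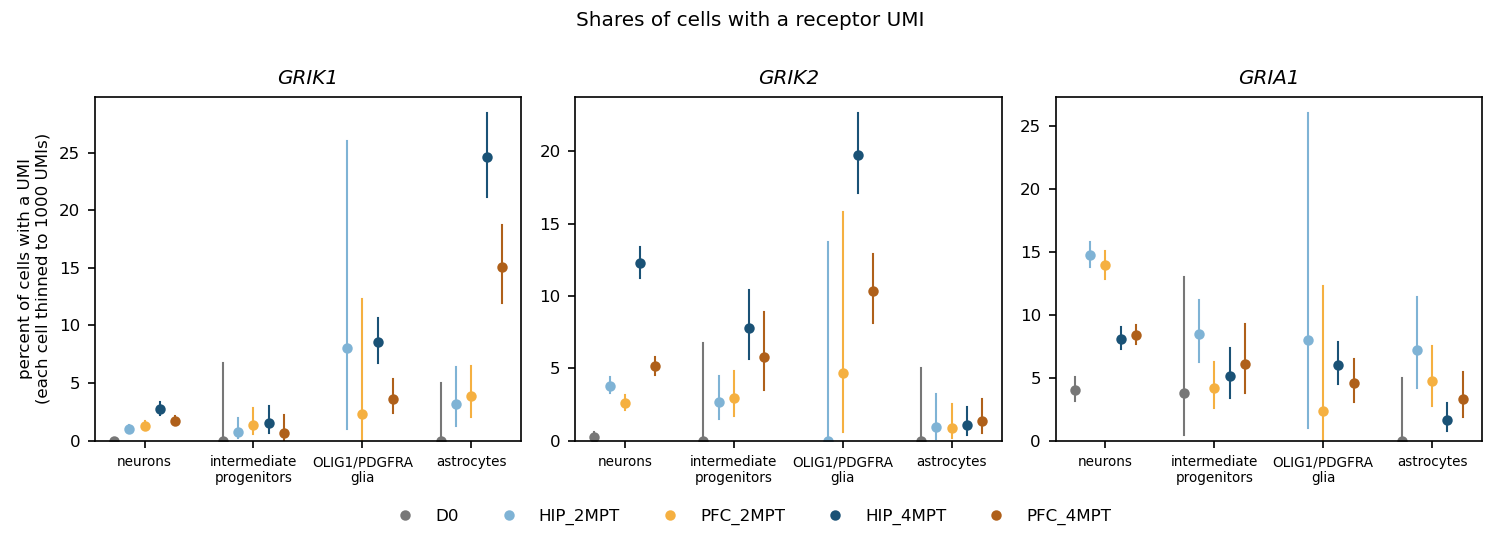
Percent of cells with at least 1 UMI of GRIK1, GRIK2 or GRIA1 after thinning each cell to 1000 UMIs; points are libraries and bars exact 95% binomial intervals. GRIK1 separates astrocytes of 4MPT (24.6% and 15.1%) from those of 2MPT (3.15% and 3.82%), and GRIA1 is seen in more neurons of 2MPT (14.8% and 13.9%) than of 4MPT (8.10% and 8.42%).

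GRM5, the metabotropic receptor, was at 3.32 CPM in D0 neurons, 18.2 and 18.0 at 2MPT, 43.3 in HIP_4MPT and 28.0 in PFC_4MPT. In neurons both 4MPT libraries again lay above both 2MPT libraries. Astrocytes were at 1.17 CPM in D0 (1 UMI), 39.6 and 42.9 at 2MPT, 63.2 in HIP_4MPT and 26.7 in PFC_4MPT, so that the 4MPT libraries lay on either side of 2MPT. OLIG1 or PDGFRA glia at 15.8 to 56.2 CPM overlapped with both, and neurons stood 2.74 times above IP (7.40 to 13.9 CPM) without overlap.

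Within the classes, single clusters differed more than the class means show. This is a description, since the clusters were drawn from the same cells, although no glutamate receptor gene was used to draw them. The OLIG1 or PDGFRA glia were made of cluster 8 (led by OLIG1, EGFR, OLIG2 and BCAN) and the smaller cluster 27 (APOD, LHFPL3, PCDH15, BCAS1, PDGFRA and MBP). GRIA2 was at 772 CPM in cluster 27 of HIP_4MPT and 423 CPM in that of PFC_4MPT, against 56.5 and 71.7 CPM in cluster 8. GRIA4 was at 223 and 116 CPM in cluster 27 against 4.24 and 5.17 CPM in cluster 8, and GRIN2A gave 10 and 15 UMIs in cluster 27 against 1 and 0 in cluster 8. GRM5, at 123 and 81.5 against 26.1 and 11.6 CPM, was likewise higher in cluster 27 in both libraries, while GRIA1, at 42.6 and 34.9 against 61.1 and 45.9 CPM, was not. Cluster 27, with 63 cells in HIP_4MPT and 102 in PFC_4MPT, gave 47 of 59 and 30 of 38 GRIA4 UMIs of the class in these libraries, and 163 of 323 and 109 of 220 GRIA2 UMIs. It held 3 cells in HIP_2MPT and 0 in PFC_2MPT, so the class was made of different clusters at the 2 stages.

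The astrocytes were made of cluster 9 (MT1E, TNC, APOE and CLU) and cluster 26 (SPARCL1, CST3, MT3, AQP4 and AGT), the latter nearly all from 4MPT. GRIK1 was at 382 and 162 CPM in cluster 9 of HIP_4MPT and PFC_4MPT and at 181 and 83.5 CPM in cluster 26. GRM5 in cluster 26 was at 159.7 CPM in HIP_4MPT (107 UMIs) but 17.2 CPM in PFC_4MPT (7 UMIs). GRIN2B was at 47.8 and 23.5 CPM in cluster 9 and at 8.96 and 2.46 CPM in cluster 26.

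Among neurons, GRIA2 was at 41.4 and 85.3 CPM in cluster 11 of HIP_4MPT and PFC_4MPT, the inhibitory neuron-like cluster, and at 27.8 and 50.8 CPM in the second inhibitory neuron-like cluster, 25. The other neuron clusters had graft means of 217 (cluster 1) to 574 CPM (cluster 10, led by DCC and CLSTN2). GRIA1 was highest in cluster 14 (led by NKAIN2), at 363, 394, 187 and 206 CPM in HIP_2MPT, PFC_2MPT, HIP_4MPT and PFC_4MPT, and GRIN2B was highest there too by its graft mean (59.8 CPM). GRIK2 in cluster 10 was at 85.0, 56.7, 440 and 142 CPM in the same order, whereas in cluster 2 it stayed between 17.6 and 29.2 CPM. In D0, cluster 15 (SST, NTS, CELF4, NEUROD6 and CALB2) held 1093 of the 1841 neurons, and GRIN2B was at 66.1 CPM there.

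**Figure D4:**
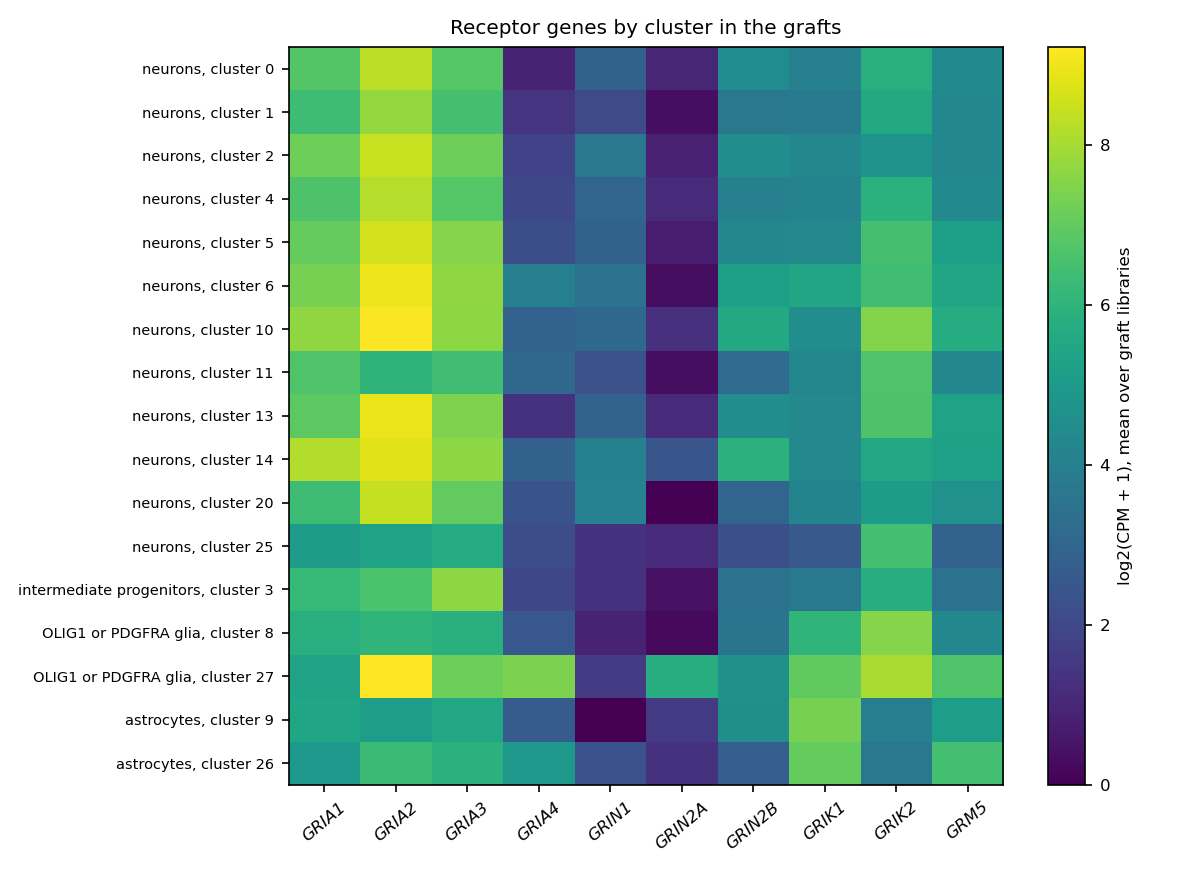
Mean level, as log2(CPM + 1), of each receptor gene (columns) in 17 clusters of the 4 classes (rows). Each mean is over the graft libraries with enough cells of the cluster, 4 or 2 of them. Colours are to be compared down a column only. GRIA2 is dark in the inhibitory clusters 11 and 25 (means 63.4 and 39.3 CPM), and GRIA4 is bright in cluster 27. GRIK1 is bright in cluster 9 (mean 160 CPM over 4 libraries) and cluster 26 (132 CPM over 2 libraries, both of 4MPT).

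The stages were compared in each class with edgeR's quasi-likelihood test on UMIs summed per library (4MPT against 2MPT, 2 libraries each, Benjamini-Hochberg adjustment over all genes tested). GRIK1 in astrocytes was the 1 receptor gene that passed the threshold of 0.05 in these fits. With the graft site as a block, GRIK2 passed as well, in neurons (1.48 on the log2 scale, edgeR adjusted p 0.00240) and in OLIG1 or PDGFRA glia (3.64, 7.20e-05). The log2(Fold change) of GRIK1 in astrocytes was 2.31 ± 0.40 (SE), with an adjusted p of 0.00919 from edgeR, and GRIK1 was called there in 15 of 15 alternatives (1.56 to 2.83 on the log2 scale, adjusted p at most 0.0216). It was 1 of 8 receptor genes tested in astrocytes, where 2.51% of 11209 genes were called (1.92% higher, 0.589% lower). The 11 astrocyte markers moved with it, at a summed 1835 and 2474 CPM at 2MPT and 11769 and 8050 CPM at 4MPT, and their part in the result was not tested. In the larger astrocyte cluster alone GRIK1 differed by 2.50 (adjusted p from edgeR 0.0216), so the difference was as large without cluster 26. The stage effect on GRIK1 was larger in astrocytes than in neurons by 1.30 ± 0.34 (edgeR interaction, adjusted p 0.0110), where 3.78% of 16592 genes had differing effects.

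In astrocytes the other 7 tested genes did not pass. GRIA1 was lower at 4MPT by −1.21 ± 0.35 (adjusted p from edgeR 0.107), and GRIA4 and GRIN2B were higher by 2.30 ± 0.72 (0.141) and 1.58 ± 0.52 (0.167). These 3 had an unadjusted p under 0.05, as GRIK1 did, which makes 4 of 8, beside 1482 of all 11209 genes. Each of the 3 rests on few UMIs at 2MPT (75, 4 and 13). GRIA1 passed without PFC_2MPT (adjusted p 0.0364) and without PFC_4MPT (0.0255), and GRIN2B without HIP_2MPT (0.0398) and without PFC_4MPT (0.00799). DESeq2 called 1 gene, as edgeR did. The median change of the 8 genes was 0.59 on the log2 scale, beside −0.0056 over all genes tested. GRIN1 and GRIN2A were filtered out for low counts.

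In neurons, edgeR called 0 of 10 receptor genes, beside 1.98% of 16229 genes (1.4% higher, 0.579% lower). Of the 10, 6 had an unadjusted p under 0.05 from edgeR, beside 2255 of all 16229 genes. DESeq2 called 2 receptor genes, GRIK2 and GRIA1. GRIK2 had a log2(Fold change) of 1.6 ± 0.38 with an edgeR adjusted p of 0.0597, and it was past the threshold in 6 of 16 alternatives, among them those without HIP_2MPT (0.00702) and without PFC_4MPT (0.00421), whereas without HIP_4MPT it was 0.84 (0.320). GRM5 had 1.01 ± 0.26 (0.0875), GRIK1 1.05 ± 0.29 (0.108) and GRIA1 −0.88 ± 0.24 (0.106). GRIA3, at 0.78 ± 0.34 (0.337), and GRIN2B, at 0.70 ± 0.31 (0.344), completed those with an unadjusted p under 0.05. The median change of the 10 genes was 0.60, beside −0.0090 over all genes. The 8 inhibitory neuron markers moved with the stage in this class, at 6 and 35.3 CPM at 2MPT and 379 and 935 CPM at 4MPT, and the 11 neuron markers summed to 8049 and 6879 CPM at 2MPT and 4670 and 3588 CPM at 4MPT. Without the inhibitory clusters and cluster 15 the differences were −0.85 for GRIA1 (edgeR adjusted p 0.137), 1.62 for GRIK2 (0.0843), 1.16 for GRM5 (0.0625) and 1.17 for GRIK1 (0.0844). Cluster 6, led by MTRNR2L genes, held 60 (HIP) and 74 (PFC) neurons at 2MPT and 133 (HIP) and 986 (PFC) at 4MPT. Cluster 20, led by heat shock genes, held 20, 233, 22 and 121 in the same order. Without both clusters GRIA1 differed by −0.92 (edgeR adjusted p 0.113) and GRIK2 by 1.59 (0.0580). GRM5 then differed by 1.00 (0.103) and GRIK1 by 0.97 (0.169).

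In IP, edgeR called 0 of 7 receptor genes tested, beside 0.308% of 10061 genes (0.199% higher, 0.109% lower). DESeq2 called 0. Of the 7, 1 had an unadjusted p under 0.05 from edgeR, beside 785 of all 10061 genes. That gene was GRIK2, at 1.71 ± 0.38 on the log2 scale (edgeR adjusted p 0.119), which passed without PFC_2MPT and without PFC_4MPT. GRIA1 was at 0.03 in IP, and its direction changed with the processing. In OLIG1 or PDGFRA glia, edgeR called 0 of 7 genes, beside 0.102% of 9773 genes (0.0512% higher, 0.0512% lower). DESeq2 called 0. Of the 7, 2 had an unadjusted p under 0.05 from edgeR, beside 768 of all 9773 genes. GRIA3 and GRIK2 were those genes, with GRIK2 at 3.81 ± 0.75 (edgeR adjusted p 0.0640), called in 10 of 15 alternatives. It compares 3 of 179828 UMIs at 2MPT with 1016 of 4846927 at 4MPT, a ratio of 12.6 with an exact 95% interval of 4.29 to 61.0 that covers counting error only.

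**Figure D5:**
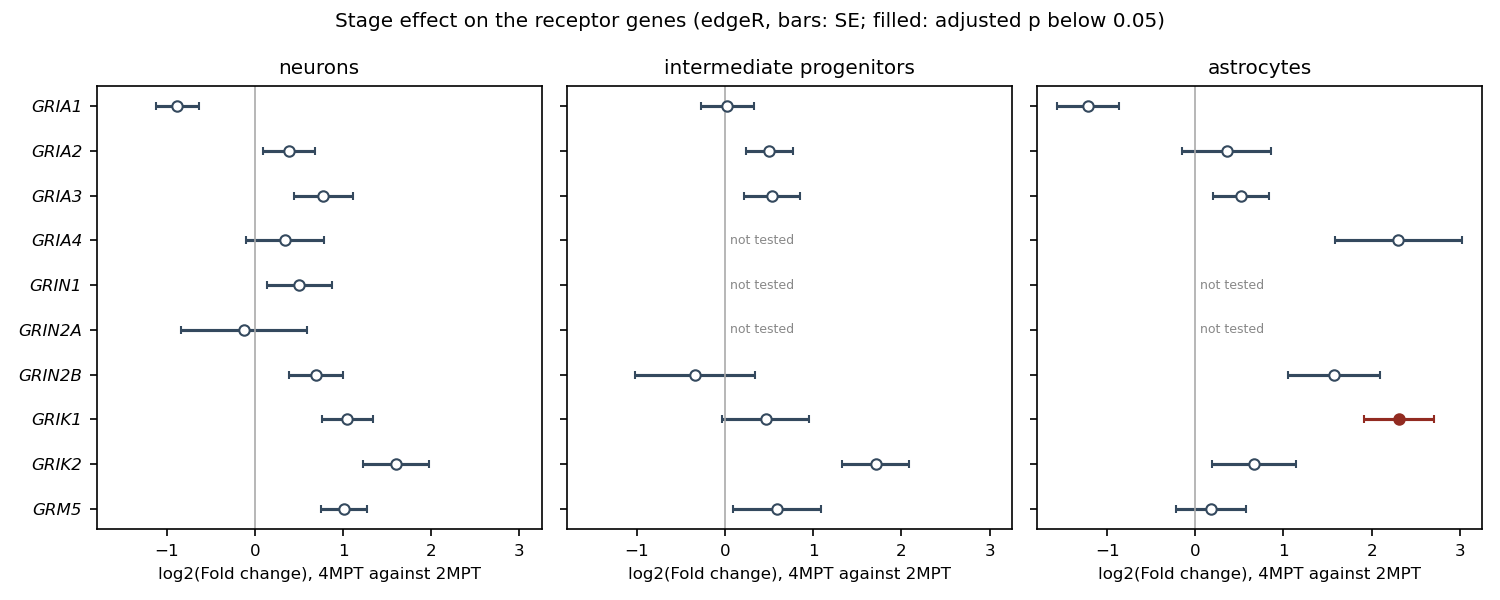
The log2(Fold change) of 4MPT against 2MPT (edgeR, bars are SE) for the receptor genes in neurons, IP and astrocytes; filled points have an adjusted p below 0.05. The only filled point is GRIK1 in astrocytes (2.31); GRIA1 lies left of 0 in neurons (−0.88) and astrocytes (−1.21), and GRIK2 lies right of 0 in all 3 classes.

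PFC was compared with HIP in fits that held the stage, at 1 residual degree of freedom. In neurons edgeR called 0 of 10 receptor genes between PFC and HIP, beside 0.148% of 16229 genes (0.117% higher, 0.0308% lower). DESeq2 called 0. Of the 10, 1 had an unadjusted p under 0.05 from edgeR, beside 384 of all 16229 genes. GRIK2 was lower in PFC by −0.85 ± 0.36 on the log2 scale (edgeR adjusted p 0.9998, unadjusted 0.0171), with HIP above PFC at both stages. In astrocytes edgeR called 0 of 8, beside 0.0714% of 11209 genes (0.0624% higher, 0.00892% lower). DESeq2 called 0. Of the 8, 1 had an unadjusted p under 0.05 from edgeR, beside 307 of all 11209 genes. GRIN2B was the gene concerned, at −0.98 ± 0.48 (adjusted p 1, unadjusted 0.0469), again with HIP above PFC at both stages. PFC_4MPT had the highest mitochondrial share. The alternatives to these fits included a mitochondrial share under 0.10. GRIK2 in neurons ranged from −1.04 to −0.74 over 12 alternatives, and GRIN2B in astrocytes from −1.17 to −0.94 over 11. Beyond that, the part of the mitochondrial share in these differences was not tested.

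Against D0, neurons of the grafts were tested in 1 edgeR model in which D0, a lone library, took the spread of the grafts. Cluster 15 held 1093 of the 1841 D0 neurons and 0, 1, 0 and 4 cells of HIP_2MPT, PFC_2MPT, HIP_4MPT and PFC_4MPT, so the class was made of different clusters in D0 and grafts. Both comparisons share D0, and 43.3% of all 17328 genes differed between 2MPT and D0 (25.9% higher, 17.5% lower) and 47.6% between 4MPT and D0 (28.1% higher, 19.5% lower). Of the 10 receptor genes, 4 were higher and 1 lower at 2MPT, with 5 called by DESeq2. GRIK1 was higher by 5.19 ± 0.58 on the log2 scale (edgeR adjusted p 2.76e-05), GRIK2 by 2.85 ± 0.52 (0.000905), GRM5 by 2.30 ± 0.39 (0.000489) and GRIA1 by 2.07 ± 0.33 (0.000361). GRIN2B was lower by −1.88 ± 0.35 (0.000987). The GRIK1 value is set against 5 UMIs in D0. Leaving out the inhibitory clusters and cluster 15 kept 661 D0 neurons. Of these, 303 were in cluster 6, led by MTRNR2L genes and of low depth, and 61 in cluster 20, led by heat shock genes. Clusters 6 and 20 held 60 and 20 of the 6095 neurons kept in HIP_2MPT and 74 and 233 of 3957 in PFC_2MPT. The compared neurons thus still differed in make-up. Without the inhibitory clusters and cluster 15 the differences were 5.25 for GRIK1, 3.20 for GRIK2, 2.49 for GRM5, 2.69 for GRIA1 and −1.40 for GRIN2B, each past the threshold.

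Long genes as a whole were higher in the grafts than in D0. Genes were divided into 4 equal groups by their GENCODE span, a comparison added after the data had been seen. At 2MPT 44.4% of the longest group (85.6 kb and above) were called higher and 10.4% lower, with a median of 0.94 on the log2 scale. In the shortest group (up to 11.4 kb) 17.1% were higher and 19.4% lower, with a median of −0.07. At 4MPT the longest group had 46.8% higher and a median of 1.03, and the shortest 18.9% and −0.09. Of the 10 receptor genes, 9 lie in the longest group, from GRIA2 (183 kb) to GRIK2 (1119 kb), and GRIN1 (30.4 kb) in the second shortest. GRIN2B (544 kb) was lower nonetheless. The longest group had a median of 0.05 between 4MPT and 2MPT, in neurons as in astrocytes. Cell Ranger version and annotation differed between D0 and grafts in the same way, so the folds against D0 cannot be told apart from that processing.

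At 4MPT, 6 of the 10 were higher and 1 lower than D0, with 7 called by DESeq2. GRIK1 stood at 6.24 ± 0.59 (edgeR adjusted p 7.96e-06), GRIK2 at 4.46 ± 0.56 (5.52e-05), GRM5 at 3.31 ± 0.40 (4.07e-05) and GRIA1 at 1.18 ± 0.32 (0.00854). GRIA3, at 1.37 ± 0.43 (0.0189), was lost without HIP_4MPT (0.121), and GRIA2, at 0.96 ± 0.37 (0.0489), was called in only 4 of 14 alternatives. GRIN2B was lower by −1.18 ± 0.35 (0.0137), but by −0.53 (0.238) without the inhibitory clusters and cluster 15, and by −0.84 (0.0692) without PFC_4MPT. GRIA4, GRIN1 and GRIN2A did not pass at either stage, although GRIA4 was called lower at 2MPT in 4 of 14 alternatives (0.0433 without HIP_2MPT) and GRIN2A lower at 4MPT in 5 of 14 (0.0224 without HIP_2MPT, 0.0217 without PFC_2MPT and 0.0285 without HIP_4MPT).

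Other genes of glutamate signalling were read from lists that, like the receptor set, were chosen with results of these data known. Between 4MPT and 2MPT in neurons, 1 of 15 tested auxiliary subunits was called higher and 1 lower, 1 of 3 genes for RNA editing higher, and 0 of 11 other receptors, 0 of 19 scaffold genes and 0 of 7 genes of glutamate transport and metabolism. Of all 16229 genes tested there, 1.4% were called higher and 0.579% lower. CNIH2, a cornichon that slows AMPA receptor gating, was at 217.7 CPM in D0, 252.7 and 185.0 at 2MPT and 71.5 and 99.6 at 4MPT (−1.31 ± 0.29, edgeR adjusted p 0.0477). ADARB2, an editing enzyme homologue without known activity, was at 2.14, 5.63, 2.41, 14 and 28.0 CPM in the order D0, HIP_2MPT, PFC_2MPT, HIP_4MPT and PFC_4MPT (2.44 ± 0.46, 0.0252). The third, GSG1L, an auxiliary subunit that suppresses AMPA currents, was below the level set for naming genes and is named after its values were seen (2.77 ± 0.38, 0.00566). The 8 inhibitory neuron markers summed to 398 CPM in D0 neurons, 6 (HIP) and 35.3 (PFC) at 2MPT and 379 (HIP) and 935 (PFC) at 4MPT. Their part in these results was not tested, and CNIH2, ADARB2 and GSG1L were not refitted without the inhibitory clusters.

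In astrocytes, 1 of 4 transport genes was called higher, 1 of 9 auxiliary subunits lower, and 0 of 12 scaffold and 0 of 2 editing genes. Of all 11209 genes tested there, 1.92% were called higher and 0.589% lower. SLC1A2, the main astrocytic glutamate transporter, was at 14 CPM in D0, 87.0 and 97.7 at 2MPT and 287.2 and 279.6 at 4MPT (1.63 ± 0.26, edgeR adjusted p 0.00562). CNIH2 was at 46.8, 134.5, 120.7, 49.0 and 62.7 CPM in the order D0, HIP_2MPT, PFC_2MPT, HIP_4MPT and PFC_4MPT (−1.16 ± 0.27, 0.0450). CNIH2 thus fell in both classes. In IP, in OLIG1 or PDGFRA glia and between the sites, edgeR called none of these lists. Over all genes the called shares were 0.308% in IP and 0.102% in OLIG1 or PDGFRA glia. Between the sites they were 0.148% in neurons and 0.0714% in astrocytes.

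Against D0, neurons at 2MPT had 6 of 15 auxiliary, 6 of 20 scaffold, 2 of 13 other receptor and 1 of 8 transport genes higher, and 2, 4, 1 and 3 lower, beside 25.9% higher and 17.5% lower of all genes. At 4MPT the higher genes were 6 auxiliary, 6 scaffold, 3 other receptor, 1 transport and 1 editing gene, and the lower ones 4, 7, 3, 2 and 0, beside 28.1% higher and 19.5% lower of all genes. DLGAP1 and DLG2, postsynaptic scaffold genes, showed the largest differences with GRM7, a metabotropic receptor: DLGAP1 was at 21.9 CPM in D0 and 724 to 1652 in the grafts (5.5 ± 0.61 at 2MPT, edgeR adjusted p 2.47e-05). DLG2 was at 16.4 CPM in D0 and 403 to 987 in the grafts. SLC17A7, the vesicular transporter of cortical glutamatergic neurons, was at 188.4 CPM in D0, 86.9 and 68.5 at 2MPT and 51.1 and 39.7 at 4MPT (−1.42 ± 0.30 at 2MPT, 0.00234; −2.16 ± 0.30 at 4MPT, 0.000111). DLG4, the scaffold of mature excitatory synapses, was at 109.7 CPM in D0 and 39.1 to 63.7 in the grafts. As said for the receptors, D0 and graft neurons were made of different clusters, and long genes as a whole were higher in the grafts. The part of these, or of the processing of D0, in the differences of these genes was not tested.

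For each receptor gene, the genes most like it were taken by Pearson's r of log2(CPM + 1) over 16 sums (4 classes in 4 graft libraries, which share depth and library), among 10204 genes, as a description. GRIA1 was most like GPR12 (0.93) and CXADR (0.92), GRIA2 like DOCK4 (0.93) and CCDC77 (0.92), and GRIA3 like UBE2E3 (0.96) and PHF6 (0.94). GRIK1 was most like TRPS1 (0.95) and CLDN10 (0.95), and GRIK2 like ZCCHC7 (0.85) and BAZ2B (0.85). GRM5 was most like PDZRN4 (0.93) and C4orf47 (0.89), GRIN2B like C16orf58 (0.93) and AC091271.1 (0.92), and GRIN1 like FRRS1L (0.87), an AMPA receptor assembly factor, and UBQLN2 (0.86). GRIN2A was most like PTGDS (0.87) and BCAS1 (0.85), and GRIA4 like AC004852.2 (0.91) and KANK1 (0.89).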

How the data were processed

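Single-cell 3′ RNA-seq was measured in 5 libraries. Per the file headers the authors deposited UMI counts per gene and barcode from Cell Ranger (3.1.0 for D0, 5.0.0 for grafts; the submitters' processing notes name Cell Ranger 3.1 and R 4.1.1) on GRCh38, without normalization; grafts were also counted on a human-mouse reference. The handling of intronic reads is not given in the sources used here.

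Human cells had more than 500 genes and UMIs each, log10(genes)/log10(UMIs), a measure of complexity, above 0.80, a mitochondrial share under 0.15 and, in grafts, a human share over 0.8; host barcodes had a share under 0.2 and over 500 mouse UMIs. Cells were clustered with R 4.3.3, Seurat 5.3.0 with sctransform 0.4.2 (RPCA, 2500 variable genes without the glutamate lists, 40 components, resolution 1.6). A cluster took the name of the marker list with the highest score, of at least 0.5, with 3 or more markers detected, unless its 10 leading genes held more markers of another list or it had low depth and no own marker among them; this naming rule was written after the files had been seen. Clusters 6 and 20 were exceptions and were named neurons. Both scored highest for the Cajal-Retzius neuron list (0.965 and 0.751), with 0 of its markers among their leading genes. Doublets were not removed in the main analysis; as an alternative, cells in the top 6% of Scrublet scores (scanpy 1.11.5, Python 3.11.15) were left out.

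UMIs were summed per class and library (at least 20 cells) and tested with edgeR 4.0.16 (filterByExpr, TMM, quasi-likelihood F test, Benjamini-Hochberg, 0.05); SE is the log2(Fold change) over the root of F. D0 comparisons used genes listed in both annotations. The procedure was tested on simulated data. Intervals are exact (Poisson or Clopper-Pearson, 95%) and, like the floor of 3 counts for a count of 0, cover counting error only. The named genes were all members, at most 5 called genes per direction of the other lists at a mean of 10 CPM, and the 2 genes most like each member; exceptions are said, and some results on other genes are not reported here. Members and lists were chosen with earlier results of these data known. Alternatives were DESeq2 1.42.0, no filter on low counts, other cell filters, resolution 0.8, cells assigned singly, narrower or wider classes, the dual reference, the graft site as a block, and each graft library left out.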

Additional observations from a re-analysis of the deposited data

Results flagged for a closer look

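The stage effect on GRIK1 differed between astrocytes and neurons by 1.30 ± 0.34 on the log2 scale (edgeR interaction with the library as a block, adjusted p 0.0110, 3.78% of genes called; a test added after the data had been seen). The effect was 2.31 in astrocytes and 1.05 in neurons, and GRIK1 was higher at 4MPT in both libraries of both classes.

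The stage effect on GRIA1 differed between IP and neurons by 0.90 ± 0.21 (the same kind of edgeR test, adjusted p 0.00687, 0.952% of genes called). GRIA1 was lower at 4MPT in neurons by −0.88, which alone did not pass, and in IP the effect was 0.03, with ranges that overlapped (90.7 and 56.2 CPM at 2MPT, 64.5 and 73.6 CPM at 4MPT).

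GRIK1 was also high in cells outside the 4 classes. In the unnamed cluster 23, led by TNC, OBI1-AS1, KIRREL3 and NPAS3, it was at 98.5 CPM in HIP_2MPT (11 UMIs), 89.6 in PFC_2MPT (15 UMIs), 421.7 in HIP_4MPT (158 UMIs) and 222.1 in PFC_4MPT (41 UMIs), a mean of 208 CPM. Host barcodes of the same libraries had GRIK1 at 6.70 (HIP) and 40.8 CPM (PFC) of their human UMIs at 2MPT and 30.2 (HIP) and 15.4 CPM (PFC) at 4MPT, from 1, 2, 9 and 5 UMIs.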

How the results depend on the processing

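The stage, site and D0 tests of the receptor genes and the counts of calls were recomputed with 1 choice changed at a time. So were the class levels, the GRIA2 shares of the classes and the GRIN2A share of neurons. The interaction tests and the genes of the other lists, such as CNIH2, ADARB2, GSG1L and SLC1A2, were not recomputed. Neither were the other shares, the cluster levels, the thinned shares of cells and the span groups. Of the alternatives to single gene and level results, 911 kept the result, 15 moved, 37 passed only there, 14 were lost and 22 changed sign. A tested gene kept its result when direction and side of the threshold stayed the same. Levels and shares were not tested. They kept the result when their mean stayed within the SD over the graft libraries, and moved otherwise. The causes were not tested. Depth limits OLIG1 or PDGFRA glia at 2MPT (29 and 43 cells) and GRIN1 outside neurons. It limits GRIN2A in every class, with 4 to 16 UMIs per library in graft neurons. Changes several times their SE also missed the threshold, such as GRIK2 between the stages in neurons (1.6 on the log2 scale, edgeR adjusted p 0.0597). A gene that was not called may therefore still have changed. Fits of PFC against HIP without a library leave no residual degree of freedom and were not run.

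With the graft site as a replicate block, calls over all genes between the stages came to 658 (322 without it) in neurons, 14 (31) in IP and 70 (10) in OLIG1 or PDGFRA glia, and receptor calls to 1 (0) in neurons, GRIK2 at 1.48 (edgeR adjusted p 0.00240), and 1 (0) in OLIG1 or PDGFRA glia, GRIK2 at 3.64 (7.20e-05); GRM5 in astrocytes came to −0.0070 in place of 0.18. The block changed no other receptor call. The replicate numbers were given in accession order and pair nothing; the block is the labelled site.

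Over all genes in neurons, 322 calls became 117 without inhibitory clusters and cluster 15, 165 at resolution 0.8 and 0 without a filter on low counts. In astrocytes 281 became 173 with DESeq2, 106 in the largest cluster alone and 604 without a filter. In IP 31 became 13 with cells assigned singly, 211 without a filter, 68 over 1000 UMIs, 2 at resolution 0.8 and 100 with the unnamed EOMES and LHX1 cluster. In OLIG1 or PDGFRA glia 10 became 20 with DESeq2, 72 with cells assigned singly, 53 in the largest cluster, 0 at a mitochondrial share under 0.10, 55 without a filter, 36 over 1000 UMIs, 97 at resolution 0.8 and 75 without high Scrublet scores. Between sites, 24 calls in neurons became 11 with DESeq2, 15 with cells assigned singly and 0 without the stage; 8 in astrocytes became 2 with DESeq2, 13 with cells assigned singly, 2 with the dual reference, 17 at a human share over 0.9, 1 in the largest cluster, 5 at a mitochondrial share under 0.10, 17 without a filter, 0 without the stage, 1 over 1000 UMIs, 3 at resolution 0.8 and 1 without high Scrublet scores. Class pairs apart fell from 22 to 3 with cells assigned singly. The largest-cluster and unnamed-cluster alternatives were chosen after seeing the data.

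Receptor calls in OLIG1 or PDGFRA glia rose from 0 to 1 (GRIK2) with cells assigned singly, in the largest cluster, without a filter, over 1000 UMIs, at resolution 0.8 and without high Scrublet scores. In astrocytes they rose from 1 to 4 without a filter (GRIA1, GRIA4 and GRIN2B added), in IP from 0 to 1 without a filter and with the unnamed cluster (GRIK2), and in neurons from 0 to 2 with DESeq2 and to 1 with cells assigned singly and at a mitochondrial share under 0.10.

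Signs changed for GRIA1 in IP (0.03) to −0.44 with cells assigned singly, −0.014 at a human share over 0.9, −0.035 over 1000 UMIs, −0.11 at resolution 0.8 and −0.26 with the unnamed cluster; for GRIA2 in astrocytes (0.36) to −0.10 with cells assigned singly and −0.30 in the largest cluster; for GRM5 in astrocytes to −0.45 in the largest cluster; for GRIN2B in IP (−0.34) to 0.74 with cells assigned singly and 0.35 with the unnamed cluster; and for GRIN1 at 4MPT against D0 (−0.02) to 0.61 without inhibitory clusters and cluster 15.

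Leaving out each graft library gave 247 to 698 calls over all genes in neurons, 12 to 151 in IP, 7 to 108 in OLIG1 or PDGFRA glia and 255 to 413 in astrocytes, and against D0 6756 to 7287 at 2MPT and 6024 to 8666 at 4MPT. Receptor calls ranged from 0 to 1 in neurons, IP and OLIG1 or PDGFRA glia, 1 to 3 in astrocytes, and against D0 5 to 6 at 2MPT and 6 to 7 at 4MPT. Values ranged from −0.27 to 0.37 for GRIA1, −0.55 to 0.85 for GRIK1 and −1.10 to 0.88 for GRIN2B in IP, −0.53 to 1.37 for GRIA2 and −0.61 to 0.66 for GRM5 in astrocytes, −1.41 to 0.55 for GRIN2A between stages in neurons and −0.50 to 0.28 for GRIN1 at 4MPT against D0.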

Other observations

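GRM3, a metabotropic glutamate receptor of astrocytes that was on the list of other receptors and named here after its values were seen, was at 14 CPM in D0 astrocytes, 42.2 (HIP) and 78.8 (PFC) at 2MPT and 115.8 (HIP) and 105.2 (PFC) at 4MPT. Both 4MPT libraries lay above both 2MPT libraries, but the gene did not pass the edgeR test of the stages in astrocytes (0.81 ± 0.31 on the log2 scale, adjusted p 0.259). GSG1L, an auxiliary subunit that suppresses AMPA currents, was at 18.7 and 15.8 CPM in OLIG1 or PDGFRA glia of 2MPT (1 and 2 UMIs) and at 191.7 and 88.1 CPM at 4MPT (583 and 159 UMIs), without passing the edgeR test there (3.33 ± 0.74, adjusted p 0.105). SLC1A3, a glutamate transporter of glia, was at 207 CPM in D0 astrocytes, 773 (HIP) and 791 (PFC) at 2MPT and 662 (HIP) and 754 (PFC) at 4MPT. Both 4MPT libraries lay below both 2MPT libraries, and the edgeR test did not pass (−0.11 ± 0.24, adjusted p 0.907).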
